A study of Paulownia elongata with 6 samples.

Results

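In leaves of Paulownia elongata, 68 of 43380 transcript models were present in every library from plants at 40 °C and nearly without reads in every library from plants at 25 °C. They were chosen by level alone. A model had to hold a level of at least 10 CPM (counts per 1e6 reads of the library) in each of 3 heat libraries, less than 2.5 CPM in each of 3 control libraries, and a lowest heat level at least 4 times its highest control level. The limits of 10 and 2.5 CPM already fix a gap of 4, so that clause removed 0 models. The choice used the reads of all 6 libraries, and the gap between heat and control in these models is therefore a description with no test.

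The series holds 6 leaf libraries, sequenced from both fragment ends with 76-base reads on a MiSeq, a benchtop instrument. All 6 are labelled with a day of 12 light and 12 dark hours. For the 3 heat libraries the plants had spent 24 hours at 40 °C. For the 3 control libraries they were at 25 °C, for a time that the labels do not give. The labels give all plants an age of 3 years, a growth period of 14 days in a potting soil with mycorrhizae, and no genotype beyond the species. Nothing in them tells whether replicate libraries stem from different plants, and the spread behind each p-value may therefore be technical. Whether heat and control libraries were sequenced together is not given in the sources used here, and the deposited files use the sample numbers S1 to S3 in both groups. A difference between sequencing runs and a difference between temperatures cannot be told apart. In whole leaves, more RNA per cell and more cells of a type cannot be told apart either.

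Plants answer heat within hours. Heat shock transcription factors bind the promoters of genes for molecular chaperones, which keep other proteins from clumping and help to refold them, and many of these genes are almost silent in unstressed leaves. Small heat shock proteins, the disaggregase of the HSP100 class and some enzymes of protective sugar synthesis are known in Arabidopsis for this off-to-on pattern. The files do not pair the identifiers with gene names, so none of the 68 models is given a name, a role or a position here, and the identity of the tissue could not be checked against leaf marker genes.

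The 68 models took 0.140%, 0.186% and 0.259% of the reads in heat libraries 1 to 3, and 0.00306%, 0.00395% and 0.00891% in control libraries 1 to 3. In reads, this was 4989, 4514 and 6454 in heat and 41, 29 and 192 in the controls. The median model stood at 13.8, 20.8 and 18.8 CPM in the heat libraries and at 0, 0 and 1.39 CPM in the controls. Heat library 3 gave these models the largest share of its reads, and control 3 gave them the largest share among the controls. Depth ran from 730315 reads in control 2 to 3570524 in heat 1.

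**Figure D1:**
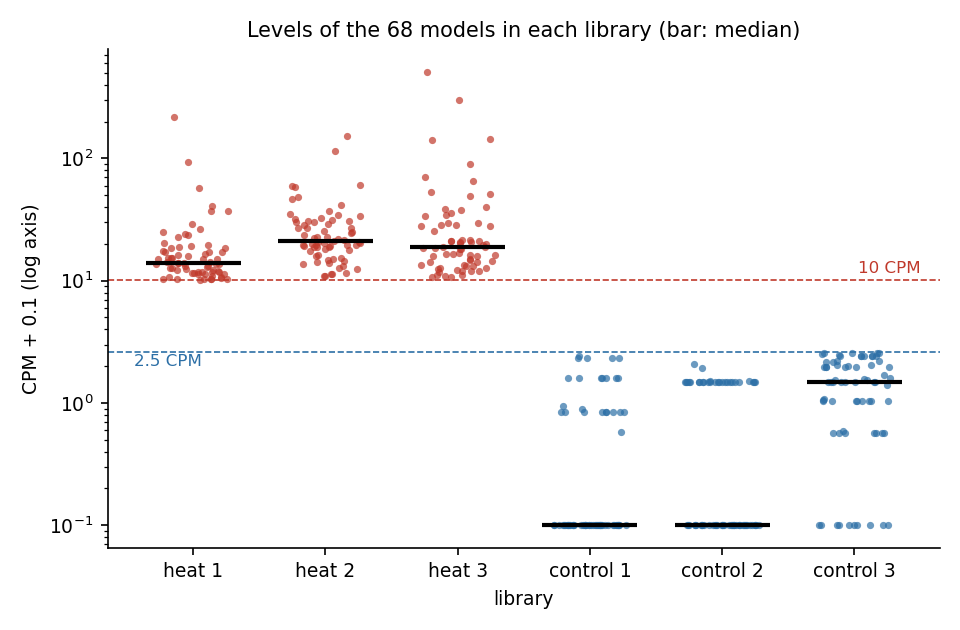
CPM of each of the 68 models in the 6 libraries, with 0.1 added so that values of 0 can be drawn on the log axis. Each point is a model, bars are medians, and dashed lines mark the limits of 10 and 2.5 CPM that chose the models. The medians in controls 1 and 2 lie at 0, and the points of control 2 lie almost all on the levels of 0 and 1 read.

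How silent the models are at 25 °C is limited by depth. A level of 2.5 CPM is 3.34 reads in control 1, 1.83 reads in control 2 and 5.38 reads in control 3. In control 2 the limit thus admits at most a single whole read, and a count of 0 there allows a level of up to 4.11 CPM (3 counts), which is above the limit. The same allowance is 2.24 CPM in control 1 and 1.39 CPM in control 3. Over the 3 controls together it is 0.711 CPM. These allowances and the intervals below cover counting error only.

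Of the 68 models, 44 had 0 reads in control 1, 40 in control 2 and 10 in control 3. Reads in control 3 with none in controls 1 and 2 were found for 25 models, and reads in every control for 12. The most that any model held was 3.10 reads in control 1, 1.44 in control 2 and 5.34 in control 3. With reads of the controls pooled, the median model had 4.12 reads and the highest 8.51, against a median of 158 pooled reads in heat and a range of 92.7 to 2331.

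**Figure D2:**
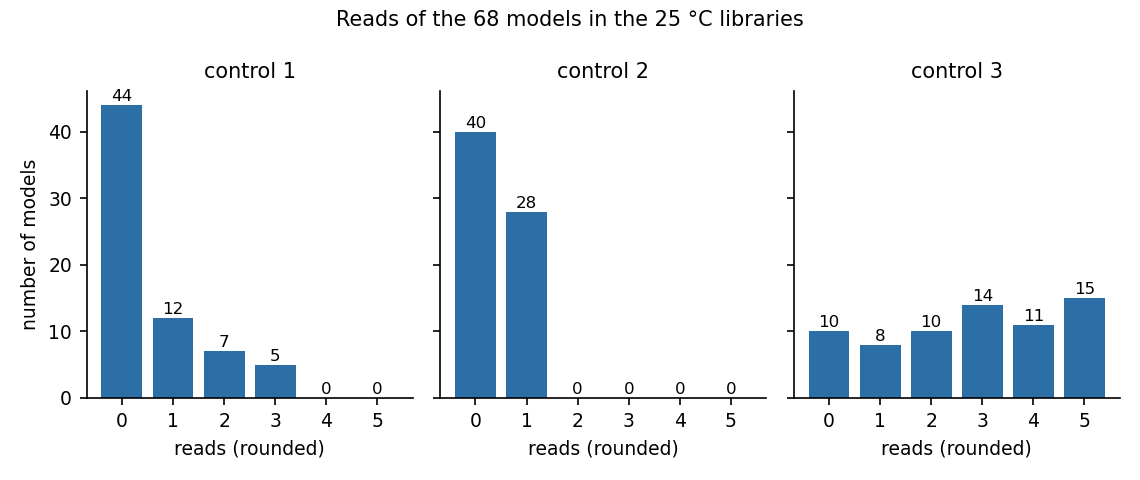
Number of models (vertical axis) by reads held in each control library, rounded to whole reads (horizontal axis). Control 3 holds 5 reads for 15 models and 0 for 10, while 44 and 40 models stand at 0 in controls 1 and 2.

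Control 3 removed more models than the other controls did. At 10 CPM or more in each heat library stood 12251 models. Below 2.5 CPM were 2168 of them in control 1, 1055 in control 2 and 160 in control 3. Both of controls 1 and 2 were below the limit for 935 models, and all 3 controls for 68. Without control 3 the same limits would keep 935 models, and with control 3 as the only control 160.

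The limits cut through a continuous range of levels. The model just inside the heat limit had 10.09, 17.5 and 11.1 CPM in the heat libraries and 0, 0 and 0.929 CPM in the controls. The closest model outside had 23.5, 9.89 and 19.2 CPM in heat and 0, 0 and 1.92 CPM in the controls. On the control side, the last model inside reached 2.48 CPM in control 3 and the first outside 2.51 CPM. A lowest heat level between 10 and 11 CPM was found for 12 of the 68, and 24 models missed the heat limit by 1 CPM or less. A highest control level of 2 CPM or more was found for 20 of the 68, and 48 models missed the control limit by 0.5 CPM or less.

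Levels were compared between models on the TPM scale, which divides reads by the effective length within a library. The mean TPM over the heat libraries ran from 2.36 to 136 across the 68 models, with a median of 14.5. It was 30 or more for 13 models, 10 to 30 for 27 and under 10 for 28. The median over the other 12183 models at 10 CPM or more in each heat library was 16.6 TPM. Ranks below follow the mean heat TPM of the 68.

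The highest level per length belonged to TR49361|c0_g1_i1|m.96773, a model of 240 coding bases. It held 61.8, 81.4 and 163 reads in heat libraries 1 to 3, and 2, 1 and 1 reads in controls 1 to 3. The CPM values averaged 38.8 ± 24.5 for heat and 1.11 ± 0.562 for controls (SD, 3 libraries each). Its heat level was 57.2, 112 and 238 TPM, lowest in heat 1 and highest in heat 3. These values rest on a small effective length, of 83.1 to 100 bases in the heat libraries. The mean of 136 ± 92.9 TPM lay close to the 130 ± 99.8 TPM of rank 2 (SD, 3 libraries each). The model of rank 2 stood at 90.5, 55.8 and 243 TPM, higher than TR49361 in heat 1 and heat 3. For TR49361 the ratio of pooled CPM was 38.1, with an exact 95% binomial interval of 14.7 to 141.

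TR70242|c1_g1_i4|m.135076, of 771 coding bases and rank 6, had the smallest p of the 68 in edgeR's quasi-likelihood test. It held 333, 366 and 222 reads in heat and 2, 1 and 3.08 reads in the controls. The levels were 93.2, 151 and 89.3 CPM in heat and 1.5, 1.37 and 1.43 CPM in the controls. The 3 controls lay close together, at a mean of 1.43 ± 0.0629 CPM (SD, n = 3), a level that rests on 1 to 3 reads in each. Pooled CPM in heat was 76.4 times that in the controls (exact 95% interval 35.0 to 209).

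The model of rank 2, with 831 coding bases, was the largest by reads. It took 14.6% of all heat reads of the 68 models, with 219, 115 and 510 CPM in heat libraries 1 to 3 and 0, 0 and 0.929 CPM in the controls. Only 2 reads in control 3 stood behind its control level, and the pooled ratio of 580 had an interval of 160 to 4791. This was the highest ratio of the 68. The model of rank 9, with 837 coding bases, followed at 313 with an interval of 56.1 to 12400. It held 132, 141 and 356 reads in heat and 1 read in the controls, in control 3.

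The models of rank 3 and rank 5 were short, with 180 and 270 coding bases, and nearly level among the heat libraries. The first had 13.6, 15.1 and 15.9 CPM in heat and 1.5, 1.37 and 2.34 CPM in the controls. Its pooled ratio of 7.77 was the lowest of the 68, with an interval of 3.83 to 18.4. The second had 24.9, 19.6 and 21.0 CPM in heat and 2.32, 1.37 and 2.05 CPM in the controls, and a ratio of 10.4. High TPM values of such short models rest on small effective lengths. Salmon gave the 180-base model an effective length of 33.1 to 43.6 bases in the heat libraries, so its 36.5 to 48.6 reads became 113 to 141 TPM.

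Rank 4, a model of 684 coding bases, held 203, 147 and 741 reads in the heat libraries, against 1.07, 1 and 3 reads in the controls. Its heat level differed 5.23-fold between the highest and the lowest library. Rank 7, of 405 bases, held 103, 112 and 96.6 reads at 40 °C, against 0, 1 and 2.01 reads in the controls, with a spread of 1.6-fold. Ranks 8 and 10, both of 273 bases, stood at 16.6 ± 1.69 and 14.1 ± 2.79 CPM in heat and at 0.310 ± 0.536 and 0.414 ± 0.380 CPM at 25 °C (SD, 3 libraries each). Together the 10 models of highest TPM held 38.6% of the heat reads of the 68, and 5 of these 10 had 300 coding bases or fewer, against 6 of the 68 in all.

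No read in any control was listed for 5 models, at ranks 16, 25, 28, 41 and 42, with 510, 819, 474, 789 and 666 coding bases. The model of rank 16 held 36.2, 59.6 and 126 reads in the heat libraries, and that of rank 25 held 61.5, 76.0 and 175. Both were highest in heat 3. The other 3 held 43.5, 55.0 and 39.3 reads (rank 28), 42.8, 45.7 and 72.8 reads (rank 41), and 40.1, 55.4 and 35.2 reads (rank 42). With the controls pooled and set at 3 counts, the ratios of the 5 models were 36.8, 51.7, 22.9, 26.7 and 21.7, in the order of rank. These bounds allow for counting error in the controls and not in the heat reads.

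**Figure D3:**
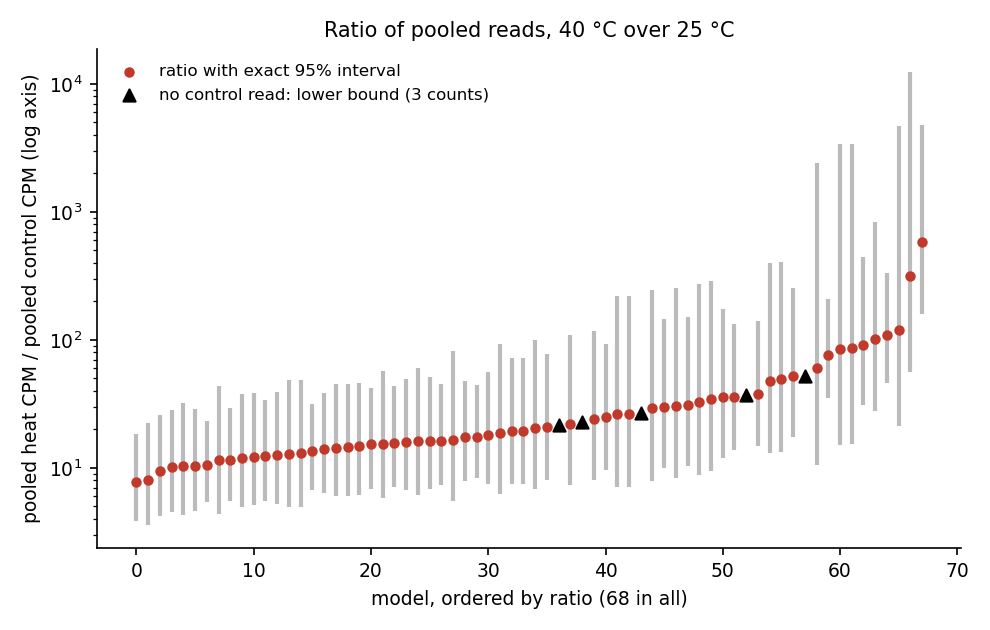
Ratio of pooled CPM in heat to pooled CPM in the controls for each of the 68 models, on a log axis, ordered by ratio. Grey lines are exact 95% binomial intervals for counting error, and black triangles are lower bounds for the 5 models with no control read. Ratios run from 7.77 to 580, and the widest intervals belong to models with few control reads.

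Over the 68 models, the ratio of pooled CPM had a median of 19.9 with the 5 lower bounds counted at their bound. It was under 10 for 3 models, from 10 to 30 for 43 and 30 or more for 22. Among the 63 models with a control read, the lower end of the interval was under 4 for 2. The intervals rest on the reads that chose the models and leave out the spread between libraries. They therefore do not test a 4-fold difference for any of the 68. The fragment length used by Salmon was 165.0, 158.9 and 165.9 bases in heat 1, heat 3 and control 3, and 140.4, 132.7 and 140.5 bases in heat 2, control 1 and control 2. Among the first 3 libraries, the median ratio was 11.3 and the range 4.64 to 365, with 10 models at the bound of 3 counts. Among heat 2, control 1 and control 2 it was 20.9 and the range 6.39 to 104, with 30 models at the bound. Models at the bound may stand higher, so both medians may be too low and the upper ends are not maxima. A model with no control read can thus rank below a model with 1 read. The part of fragment length in these ratios was not tested.

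The heat libraries differed among themselves. The highest heat level was less than 2 times the lowest for 42 of the 68 models, 2 to 3 times for 16 and more than 3 times for 10. Of these 10, heat 3 was the highest library for 9 and heat 2 for 1. The 10 models took 53.1% of the reads of the 68 in heat 3, 31.2% in heat 1 and 23.8% in heat 2. They took 0.0436%, 0.0443% and 0.138% of all reads in heat libraries 1 to 3. The other 58 models took 0.0961%, 0.142% and 0.122%. The 10 were picked for their spread, so this division is a description. They include ranks 1, 2, 4, 9, 16 and 25.

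The widest spread, 6.35-fold, belonged to the model of rank 46, with 2712 coding bases. It held 147, 54.0 and 351 reads in heat, or 41.1, 22.3 and 141 CPM, and 0, 1 and 2.01 reads in the controls. The narrowest, 1.04-fold, belonged to the model of rank 62, with 939 coding bases, at 10.8, 11.2 and 10.9 CPM in heat and 0, 0 and 1.95 CPM in the controls. Heat 2 was the highest heat library for 33 of the 68, or 48.5%, heat 3 for 30, or 44.1%, and heat 1 for 5, or 7.35%. Among the other 12183 models at 10 CPM or more in each heat library, the shares were 60.3%, 22.4% and 17.3%. Spreads of more than 3 times were found for 14.7% of the 68 and 6.39% of those others. The median of the mean heat CPM was 19.3 for the 68 and 31.8 for the others, and the part of read level in the spread was not tested. Heat 1 was the lowest heat library for 52 of the 68, and the share among the other models was not counted.

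**Figure D4:**
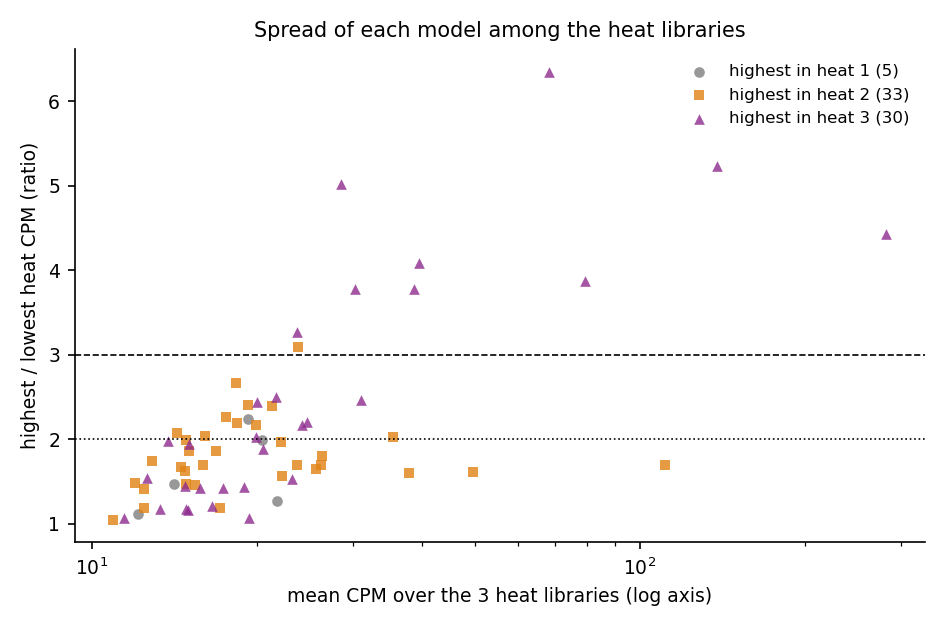
Ratio of the highest to the lowest CPM among the 3 heat libraries for each of the 68 models (vertical axis) against its mean heat CPM (horizontal, log axis). The symbol shows which heat library was highest, and lines mark ratios of 2 and 3. Of the 10 models above 3, all but 1 were highest in heat 3, and they include the 2 models of highest mean CPM.

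**Figure D5:**
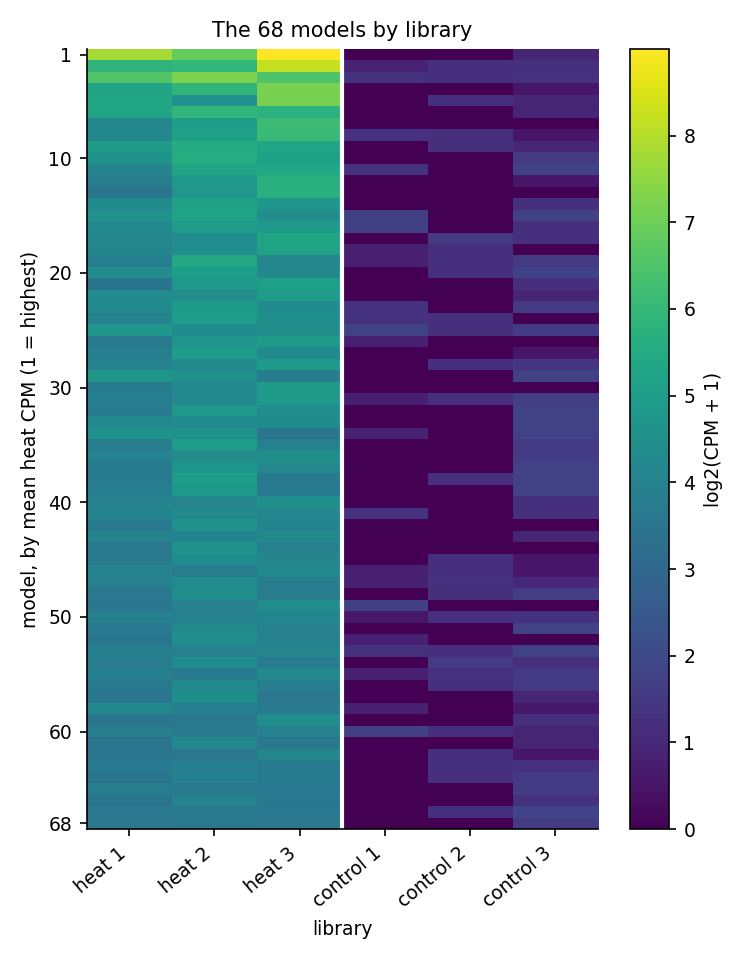
Level of each of the 68 models in each library as log2(CPM + 1), with the models ordered by mean heat CPM. The 3 heat columns lie to the left of the white line and the controls to the right, where 0 is darkest. Control 3 shows low levels for most models, and controls 1 and 2 show 0 for 44 and 40 of them.

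Properties that the limits did not name were set beside those of other models, as descriptions without a test. Coding length and read estimates are not free of the limits, since CPM rises with length and the same reads chose the models. The median coding length of the 68 was 664.5 bases, with a range of 180 to 3150. It was 837 bases over the other 12183 models at 10 CPM or more in each heat library. Longer than 1000 bases were 16 of the 68, or 23.5%, and 39.5% of the others. The 3 longest, of 3150, 2748 and 2712 bases, stood at only 2.70, 2.61 and 8.36 TPM in heat, since CPM counts reads and not reads per length.

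Each of the 68 models came from a different gene and a different component by the identifiers. These hold a TR number, a c number, a gene number (g), an isoform number (i) and a model number (m). A component here is all models of the same TR number, whatever their c number. A gene is all models of the same TR, c and g numbers. The 68 were the sole model of their gene in 64 cases, or 94.1%, against 79.2% of the other heat-expressed models. They were the sole model of their component in 47 cases, or 69.1%, against 62.0% of those others and 69.2% of all 43380 models. Over all models, 81.3% were the sole model of their gene. Read estimates that were whole numbers in all 6 libraries, within 0.01 reads, were found for 1 of the 68, or 1.47%, and for 1.53% of the others. Fractions of reads arise where Salmon divides reads between models, so some reads of nearly all 68 are also compatible with other models in the reference. In the controls alone, 40 of the 68 had whole numbers throughout. The control limit leaves each of them few reads there, and the share among other models was not counted.

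For 4 of the 68 models the gene had further models, 5 in all. The gene of rank 4 has another model, of 279 coding bases, with 14.0, 20.2 and 48.7 CPM in heat and 2.94, 0 and 0.464 CPM in the controls. It missed the limit in control 1, and like the model of rank 4 it was highest in heat 3. The gene of rank 43 has a model of 1041 bases with 45.5, 70.8 and 55.0 CPM in heat and 57.6, 37.7 and 9.84 CPM in the controls, where the groups overlap. The gene of rank 68 has a model of 2223 bases with 39.4, 55.4 and 35.0 CPM in heat and 0, 6.85 and 27.6 CPM in the controls. For the gene of rank 35, a model of 738 bases reached 30.6 CPM in control 3, within its heat range of 25.7 to 40.7 CPM, and a model of 351 bases stood at 3.47 to 7.62 CPM in heat. How Salmon divides reads between such models is uncertain. With the reads of all models of a gene summed, 65 genes met the limits, 64 of them genes of the 68 models.

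For 18 of the 68 models the component held models of other genes, 37 in all. In the component of TR70242, a model of 1587 bases had 267, 359 and 277 CPM in heat and 2.24, 9.58 and 37.1 CPM in the controls, and missed the control limit. A model of 192 bases there had 16.2, 22.1 and 9.34 CPM in heat and 0.748, 1.37 and 0.929 CPM in the controls, and missed the limit in heat 3 by less than 1 CPM. A model of 180 bases in the same component went the other way, with 10.7, 28.4 and 13.9 CPM in heat and 288, 408 and 35.7 CPM in the controls. A model of 2043 bases overlapped between the groups, at 575 to 834 CPM in heat and 544 to 873 CPM in the controls. In the component of rank 43, a model of 282 bases had no read in any control and 8.34, 19.7 and 12.2 CPM in heat, and missed the heat limit in heat 1. Over all 42 models that share a gene or component with the 68, 15 were higher in heat and 1 was lower at an FDR of 0.05 in the authors' deposited table, and 26 were not called. That table calls 5.06% of its 43380 models higher. The 42 models may share reads with the 68, which were chosen on this contrast, so nothing is read from these counts.

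All 68 models passed edgeR's expression filter, which each of them does through its heat libraries alone. The test and the selection used the same contrast, so the counts of calls among the 68 are given beside the share called over all models, and nothing is read from them. edgeR's quasi-likelihood test called 1 of the 68 higher in heat at an adjusted p of 0.05, which was TR70242 and the sole call of the whole table, or 0.00417% of 23984 models tested. It had a log2 fold change of 6.07 (standard error 0.51, adjusted p 0.0323). The adjusted p of the other 67 ran up to 0.0818, and 57 of the 68 shared a value of 0.0755. TR49361 had a log2 fold change of 5.07 (standard error 0.84, adjusted p 0.0755) in the same edgeR test. At an unadjusted p under 0.05 the test had 68 of the 68 and 13.6% of all models on the higher side.

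The fitted log2 fold change of the 68 ran from 2.89 to 9.37 with a median of 4.23, against a median of 0.08 over all 23984 tested models. The fitted values of the 5 models with no control read, from 8.0 to 9.37, depend on the prior count. With these 5 at their bound, the median log2 ratio of pooled CPM was 4.31. edgeR's exact test called all 68 and 9.39% of 23984 models higher at an adjusted p of 0.05, and DESeq2 called all 68 and 7.19% of 30550. limma-voom called 0 of the 68 and 0% of 23984 models, with a smallest adjusted p of 0.0521 over all models, although 68 of the 68 and 4487 models in all were higher at an unadjusted p under 0.05. The authors' deposited table calls all 68 higher at an FDR of 0.05, and 5.06% of its 43380 models. In that table the log2 fold changes of the 68, with the sign set to heat relative to control, run from 3.00 to 9.39, and the FDR from 8.01e-11 to 0.0233. Without control 3 the quasi-likelihood test called 68 of the 68 higher and 34.4% of all 26925 models tested. Without controls 1 and 2 it called 26 of the 68 and 0.555% of 30798 models. Without any other single library edgeR's test called 0 of the 68 and 0 of all models, while 68 of the 68 and 1877 to 2642 models in all were higher at an unadjusted p under 0.05.

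The most similar list in the series is that of models with the same 10 CPM in each heat library and the same 4-fold gap that reached 2.5 CPM or more in a control. It holds 150 models, and these took 1.0%, 1.38% and 1.53% of the reads in heat libraries 1 to 3. Both lists took their lowest share in heat 1 and their highest in heat 3. The 150 had a median coding length of 900.0 bases and a median heat level of 24.4 TPM, against 664.5 bases and 14.5 TPM for the 68. They were the sole model of their gene in 79.3% of cases, against 94.1% for the 68. A heat spread of more than 3 times was found for 15 of the 150, or 10%, and for 14.7% of the 68. The division between the 2 lists is a level in the controls near the resolution of the shallow libraries, so models near it could stand in either.

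The opposite pattern, 10 CPM or more in each control and less than 2.5 CPM in each heat library, was found for 7 models, against 68. They were 198 to 885 coding bases long, and the median was 300 bases. The limits are not symmetrical in reads. A level of 2.5 CPM is 6.06 to 8.93 reads in the heat libraries and 1.83 to 5.38 reads in the controls.

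Which models make up the 68 depends on the unit. With TPM in place of CPM under the same limits, 136 models qualified, and 23 of the 68 were among them. With CPM on library sizes scaled by TMM, 67 qualified and 60 of the 68 were among them. Raising the heat limit to 20 CPM left 9 models, and lowering the control limit to 1 CPM left 17.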

How the data were processed

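Salmon, named in the submitters' processing notes, gave the authors' deposited estimated counts (reads per transcript model, not whole numbers) and TPM for 43380 models. Its version and the reference are not stated. Model lengths are coding lengths, since 99.99% are multiples of 3. The authors' deposited table gives log2 fold changes, log2 CPM, p-values and FDR; its sign was opposite to heat over control for 100% of the 19153 models past 2-fold on mean CPM + 1, so it was reversed.

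CPM used the sum of estimated reads per library. Estimated counts were rounded for edgeR 4.0.16 in R 4.3.3 (expression filter, TMM, robust quasi-likelihood test, group only, Benjamini-Hochberg adjustment over all tested models). The filter needs a depth-scaled count of 10 in 3 libraries and 15 reads in sum. Standard errors were derived from fold change and F. Ratios have exact 95% Clopper-Pearson intervals. Simulated data had the same fixed dispersion for all models and no difference between libraries of a group other than depth. In them the test recovered 100 of 100 models changed 8-fold and 26 of 100 changed 2-fold. There were 22713 models tested and 5 false calls. The spread of the real libraries was not simulated, so these counts do not give the recovery on them. Fragment length is the median difference of length and effective length for models over 1000 bases. DESeq2 1.42.0 and limma 3.58.1 were alternatives.

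The models and lists were chosen with earlier results of these data known. By rule, identifiers were printed for the model with the smallest p and that with the highest heat TPM; others go by rank. Gene lists for chaperones and heat factors had no result, since identifiers carry no gene names.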

Additional observations from a re-analysis of the deposited data

How the results depend on the processing

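The number of models within the limits was 68. It was 136 with TPM in place of CPM, 244 and 9 with a heat limit of 5 and 20 CPM, 17 and 140 with a control limit of 1 and 5 CPM, and 40 with an 8-fold gap. It was 67 with TMM scaling, 65 with isoforms summed and 68 with a 2-fold gap. Leaving out 1 library gave 75 to 935, with 135 without heat 1 and 935 without control 3. Settings chosen after seeing the data gave 160 without controls 1 and 2, and 2168 and 1055 with control 1 or control 2 as the only control. Looser limits can only add models, which accounts for the larger counts when a library is left out.

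The quasi-likelihood test called 1 of the 68 higher, also with DESeq2 size factors or library totals. In each of these fits it called 1 of 23984 models higher in all. It called 4 without a filter, where 8 of 43376 models were higher, and 4 with fragment length class as a covariate, where 13 of 23984 were. The exact test and DESeq2 called 68 each, limma-voom called 0, and 26 were called without controls 1 and 2, where 171 of 30798 models were higher and 359 lower, a fit that takes the spread of the lone control from the heat libraries. Higher over all models were 2251 of 23984 in the exact test, 2197 of 30550 in DESeq2 and 0 of 23984 in limma-voom. With 1 library left out, the quasi-likelihood test called 0 to 68 of the 68. It called all 68 only without control 3, where 9267 of 26925 models were called higher and 5768 lower. With the replicate number as a block (replicate block) it called 3, and 5 of 23984 models in all. The labels state no pairing, and deviations of same-numbered libraries correlated at 0.01, 0.18 and 0.35, so the numbers were not taken to pair them; heat 1 and heat 2 each correlated better with a differently numbered control. The cause of the differences between tests was not tested.

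The median log2 fold change of the 68 was 4.23, and 3.74 to 4.46 under the other quasi-likelihood fits that keep all libraries or leave out controls 1 and 2. It was 3.99 to 5.75 with 1 library left out, the highest without control 3. TR70242 had a log2 fold change of 6.0 to 6.2 with 1 library left out, and missed the threshold in each case but that without control 3 (adjusted p of 0.000154 to 0.266). TR49361 had 4.37 to 5.52, and passed only without control 3, at 4.65 with an adjusted p of 0.00135. The share of reads, 0.195% on average in heat and 0.00531% in the controls, was 0.150% and 0.00437% in TPM. Depth limits the control side, where 3 reads are 4.11 CPM in control 2.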
